A study of Mus musculus with 3 samples.

Results

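Cytochrome c oxidase, complex IV of the respiratory chain, has several nuclear-encoded subunits that exist as pairs of isoforms. The 8 genes examined here, of 23238 gene symbols in the count data, were chosen by name: Cox6a2, Cox7a1 and Cox8b, the isoforms of striated muscle, their widely expressed partners Cox6a1, Cox7a2 and Cox8a, and the pair Cox4i1 and Cox4i2. C2C12, an immortalized mouse myoblast line that fuses into myotubes in low serum, was kept on 3 substrates for 2 days in myogenic induction medium (DMEM with 2% horse serum). TCP was a plain tissue culture plate, GelMA a hydrogel of 15% methacrylated gelatin, and GelMA-PSS the same 15% hydrogel mixed with 1% poly sodium 4-styrenesulfonate, a synthetic mimic of heparin. RNA was sequenced from 1 library per substrate, so no value below has a replicate, no p-value is given, and each difference is one between libraries of a single cell line.

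Complex IV passes electrons from cytochrome c to oxygen and pumps protons across the inner mitochondrial membrane. Its catalytic core is encoded by mitochondrial DNA, and the small nuclear-encoded subunits around it support assembly, stability and regulation. In heart and skeletal muscle, the fetal or ubiquitous forms of subunits 6A, 7A and 8 give way in part to the muscle forms as the tissue matures, although Cox7a1 and Cox8b are also abundant in brown fat. Cox4i1 is the general form of subunit 4, whereas Cox4i2 is known mainly from lung and from cells that sense oxygen.

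The genes were placed on the mouse genome build GRCm38 with GENCODE vM21. Cox6a2 (chr7:128205435-128206387, minus strand, 3 exons) lies wholly inside Itgad, which runs on the opposite strand. Cox6a1 is at chr5:115345642-115348981 on the minus strand with 3 exons. Cox7a1 is at chr7:30184144-30186078 on the plus strand, and Cox7a2 at chr9:79755361-79759878 on the minus strand, each with 4 exons. Cox8b (chr7:140898945-140900446) and Cox8a (chr19:7215153-7217616) are on minus strands and have 2 exons each. Cox4i2 is at chr2:152754173-152765037 on the plus strand. Cox4i1 (chr8:120668222-120674207, plus strand, 5 exons) shares 352 bases with Emc8 on the opposite strand. It also lies, over 5986 bases, inside Gm20388 on the same strand, which has no line in the counts. The part of that overlap in the Cox4i1 counts was not tested. All have short transcripts, from 360 bases for Cox8b to 765 for Cox4i1. Within a pair the coding sequences were 53.0% to 64.0% identical, and the longest stretch shared by a pair was 14 bases, in Cox4i1 and Cox4i2.

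The muscle and ubiquitous genes of subunits 7A and 8 also differ in the sequence before their start, and these windows are shown so that the members can be compared there. The windows are the 250 bases before the RefSeq start site (build GRCm38.p6), printed 5′ to 3′ on the strand of the gene. By the GENCODE positions above, Cox6a1, Cox7a1 and Cox7a2 start further upstream, so the last bases of their windows lie inside the gene. In Cox6a1 these bases include the ETS core described next. Capitals mark E-boxes (CANNTG, the core bound by MyoD and myogenin among others), the palindromic core bound by NRF1 (the first capitals in the Cox6a1 window) and the ETS core CCGGAAG, read as CTTCCGG on the other strand. NRF1 and the ETS factor GABP are known regulators of respiratory genes. Windows were matched for 5 of the 8 genes, the other 3 being Cox4i1, Cox4i2 and Cox6a2.
Cox7a1 (chr7:30183921-30184170, plus strand): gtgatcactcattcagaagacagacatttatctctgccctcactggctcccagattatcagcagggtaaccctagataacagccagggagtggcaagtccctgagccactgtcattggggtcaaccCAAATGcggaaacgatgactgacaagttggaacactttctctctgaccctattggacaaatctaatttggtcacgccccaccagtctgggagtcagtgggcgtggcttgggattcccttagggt
Cox7a2 (chr9:79759854-79760103, minus strand): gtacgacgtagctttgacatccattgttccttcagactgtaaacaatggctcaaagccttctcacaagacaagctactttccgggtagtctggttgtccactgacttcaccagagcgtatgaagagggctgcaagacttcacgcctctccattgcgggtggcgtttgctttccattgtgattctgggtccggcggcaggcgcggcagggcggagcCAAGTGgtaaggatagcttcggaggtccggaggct
Cox8b (chr7:140900447-140900696, minus strand): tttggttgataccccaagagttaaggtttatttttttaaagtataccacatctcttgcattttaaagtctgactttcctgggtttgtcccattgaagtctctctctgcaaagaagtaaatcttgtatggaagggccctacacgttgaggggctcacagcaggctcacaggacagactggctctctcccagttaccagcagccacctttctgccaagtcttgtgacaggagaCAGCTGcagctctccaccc
Cox8a (chr19:7217617-7217866, minus strand): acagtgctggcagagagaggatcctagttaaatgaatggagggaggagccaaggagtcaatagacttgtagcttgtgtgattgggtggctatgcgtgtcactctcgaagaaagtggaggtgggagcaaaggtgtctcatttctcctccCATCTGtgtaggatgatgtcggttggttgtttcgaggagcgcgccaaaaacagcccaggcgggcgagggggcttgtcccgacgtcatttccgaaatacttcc
Cox6a1 (chr5:115348959-115349208, minus strand): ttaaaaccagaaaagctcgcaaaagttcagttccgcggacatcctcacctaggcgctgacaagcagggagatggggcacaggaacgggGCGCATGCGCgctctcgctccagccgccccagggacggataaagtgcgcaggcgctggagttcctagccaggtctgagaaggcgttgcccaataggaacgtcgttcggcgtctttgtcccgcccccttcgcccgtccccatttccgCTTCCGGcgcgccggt
The Cox8b window had 1 CpG and a GC content of 47.2%, against 11 CpG and 52.8% for Cox8a. The Cox7a1 window had 4 CpG and a GC content of 51.2%, against 14 CpG and 54.8% for Cox7a2. Both muscle genes therefore had fewer CpG than their partner, and the median over 32851 mouse windows was 6. Cox6a1 had the most, with 26 CpG, and was the only one of the 5 with the NRF1 and ETS cores, which 0.782% and 6.91% of all windows hold. The other 4 windows held 1 E-box each, a motif found in 66.2% of all windows, and the Cox8b E-box CAGCTG began 19 bases before the start. Searches on both strands for the MEF2 core, CTA and TAG with 4 bases of any kind between them, and for TATAAA found no match in the 5 windows, against 3.20% and 12.4% of all windows. These are matches of letters and not measured binding.

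The libraries differed in depth, at 119799095 counts (TCP), 87071144 (GelMA) and 192171443 (GelMA-PSS). Levels are CPM, counts scaled to library size, with TMM factors, which align the bulk of genes between libraries, and levels of different genes are compared as TPM, which also divide by transcript length. Of 10 symbols for skeletal muscle markers, 9 were listed and all 9 were detected, with summed CPM of 26661, 19705 and 16614 in TCP, GelMA and GelMA-PSS. The symbol not listed, Mymk, names the same gene as the listed Tmem8c. Without Myh3, embryonic myosin, the other 8 summed to 16480, 13349 and 13577, and 4 of them were higher and 4 lower on GelMA-PSS than on GelMA. After the correction for transcript length and GC content described below, 7 of the 9 were lower on GelMA-PSS than on both controls and 1 was higher. Their corrected median log2 ratios were -0.34 to GelMA and -0.54 to TCP. Over all genes 40.7% were then lower than both and 40.9% higher. Cardiac markers summed to 462, 149 and 56.6 CPM, of which Myh6 had 457, 144 and 48.4, with Myl7 at 0 in all 3 libraries. Past 2-fold lower against both controls was Myh6, also after correction, at log2 ratios of -1.06 to GelMA and -2.83 to TCP. Over all genes 1.16% were, or 0.628% after correction. Nppb had 1.56, 1.44 and 4.89 CPM, past 2-fold higher against both controls, as were 1.37% of all genes. After correction Nppb was at 0.64 and 0.67 and did not pass. Brown adipocyte markers summed to 41.3, 25.4 and 18.2 CPM, 2 of the 10 (Dio2 and Cpt1b) reached the filter, and the defining gene Ucp1 had at most 1 count per library. The 5 fibroblast markers summed to 213, 212 and 271 CPM, mostly Dcn, and the other 4 summed to 9.45, 14.9 and 11.6 CPM, each lower on GelMA-PSS than on GelMA. Values of leukocyte and endothelial markers summed to less than 2 CPM. In bulk RNA, fewer cells of a type and less RNA per cell cannot be told apart, and the part of these marker levels in the results below was not tested.

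In all 3 libraries the ubiquitous isoforms were the more abundant members. Cox4i1 was the highest at 930 TPM on TCP, 939 on GelMA and 1071 on GelMA-PSS. Cox8a followed with 515, 535 and 686 TPM, close to Cox6a1 with 508, 474 and 588 TPM, while Cox7a2 reached 323, 354 and 430 TPM. Cox8a and Cox6a1 differed by little on TCP and stood further apart on both hydrogels. The muscle isoforms lay below every ubiquitous partner on each substrate. Cox6a2 was the most abundant of them with 141, 95.2 and 79.6 TPM, followed by Cox8b with 81.6, 66.2 and 72.1 TPM and Cox7a1 with 18.9, 16.8 and 30.5 TPM. Cox6a2 and Cox8b were nearly level in the GelMA-PSS library. Cox4i2 was close to the limit of detection, with 5, 10 and 6 counts against 43191, 31404 and 98833 for Cox4i1.

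**Figure D1:**
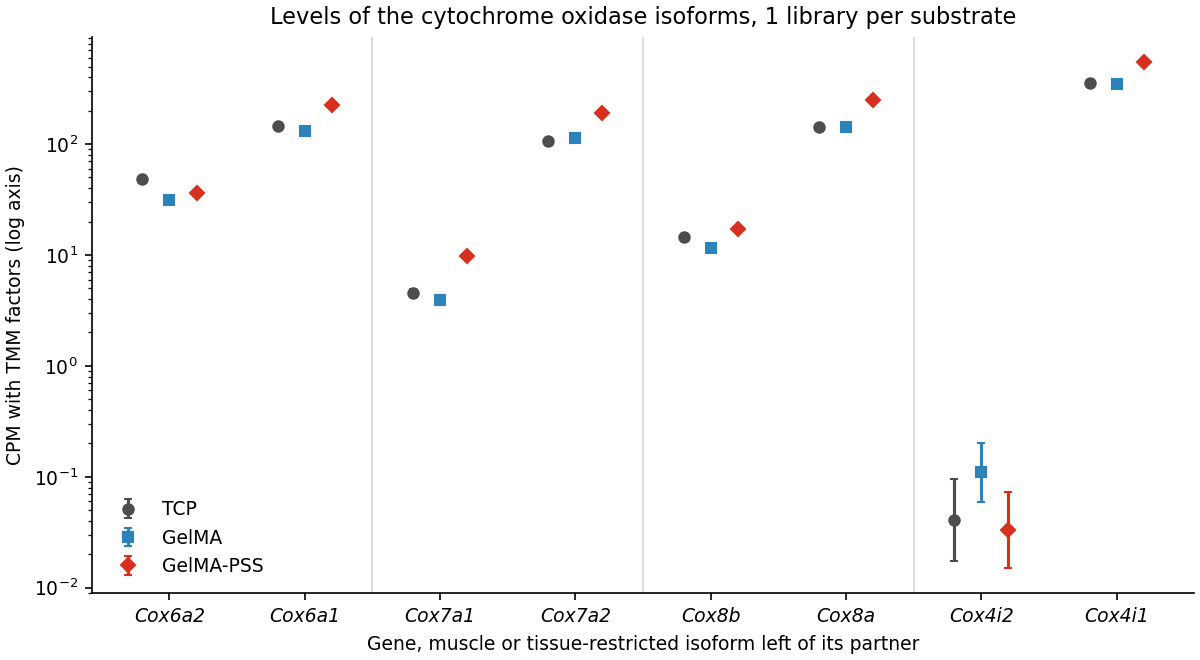
Levels of the 8 isoform genes in CPM with TMM factors on a log axis, with 1 point per library and bars for the 95% Wilson interval, which covers counting error only. Cox4i1 was highest, Cox4i2 had 5 to 10 counts, and Cox7a1 was the muscle isoform with the highest point in GelMA-PSS relative to the controls, at 9.84 CPM against 4.57 and 3.93.

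Cox6a2, the muscle form of subunit 6A, measured 47.9 CPM (95% interval 46.7 to 49.2) on TCP, 31.2 (30.0 to 32.3) on GelMA and 36.1 (35.2 to 36.9) on GelMA-PSS. Both hydrogel libraries were below TCP, and the intervals, which cover counting error only, did not overlap. The log2 ratio of GelMA-PSS was 0.20 to GelMA and -0.40 to TCP, and that between the controls, GelMA against TCP, was -0.61. Its host gene Itgad had 125, 50 and 38 counts in TCP, GelMA and GelMA-PSS, far below the 5836, 2831 and 6531 counts of Cox6a2. Cox6a1, the partner, measured 145, 130 and 223 CPM, and was thus highest on GelMA-PSS, with log2 ratios to GelMA and TCP of 0.77 and 0.62.

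Cox7a1, the muscle form of subunit 7A, measured 4.57 CPM (4.21 to 4.97) on TCP, 3.93 (3.54 to 4.36) on GelMA and 9.84 (9.40 to 10.3) on GelMA-PSS. The GelMA-PSS library stood apart from both controls, whose intervals overlapped. The CPM ratio was 2.51 against GelMA and 2.15 against TCP. On the log2(CPM + 1) scale, which shrinks the ratios of low genes, these were 1.14 and 0.96. Cox7a2 measured 106, 112 and 189 CPM in TCP, GelMA and GelMA-PSS, with log2 ratios to GelMA and TCP of 0.74 and 0.82.

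Cox8b, the muscle form of subunit 8, measured 14.7 CPM (14.0 to 15.4) on TCP, 11.5 (10.8 to 12.2) on GelMA and 17.3 (16.7 to 17.9) on GelMA-PSS. The order of the libraries was the same as for Cox7a1, with smaller log2 ratios to GelMA and TCP of 0.55 and 0.22. Cox8a measured 141, 142 and 251 CPM, with nearly equal controls and log2 ratios to GelMA and TCP of 0.82 and 0.83. Cox4i1 measured 355, 346 and 546 CPM, with log2 ratios to GelMA and TCP of 0.66 and 0.62.

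Of the 7 members that reached 1 CPM in at least 1 library, 1 passed 2-fold for GelMA-PSS against GelMA, namely Cox7a1, which was higher. Over all 13169 genes with that level, 1.77% were higher and 2.33% lower past 2-fold in this comparison. No member passed 2-fold for GelMA-PSS against TCP, where 3.72% of all genes were higher and 3.13% lower. For GelMA against TCP the count was also 0, with 0.706% of all genes higher and 0.296% lower, and against both controls together it was 0, with 1.37% higher and 1.16% lower. Without a threshold, 6 of the 7 had their highest value on GelMA-PSS and none its lowest, with Cox6a2 in between. Of all genes 45.3% had their highest and 39.3% their lowest value there. The 4 ubiquitous members had medians of 0.76 to GelMA and 0.72 to TCP on the log2 scale, and the 3 muscle isoforms 0.55 and 0.22, beside 0.03 and 0.04 over all genes.

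Short transcripts as a whole had higher ratios in the GelMA-PSS library. Across 13054 genes of known length, Spearman's rho between transcript length and log2 ratio was -0.66 when GelMA-PSS was set against GelMA, -0.50 when set against TCP, and 0.21 between the 2 controls, where genes are not independent replicates. The 421 other genes with transcripts of 360 to 765 bases had a median ratio, on the log2 scale, of 0.64 to GelMA (interquartile range 0.27 to 0.86) and of 0.58 to TCP (0.23 to 0.90). Of these, 15.0% were higher past 2-fold against GelMA, 18.8% against TCP and 11.2% against both. Lower past 2-fold were 0.238% against GelMA, 0.950% against TCP and 0.238% against both, and between the controls 0.238% passed in each direction. Without a threshold 81.0% had their highest value on GelMA-PSS and 9.03% their lowest. The ubiquitous members sat inside this range. Cox4i1 was above 51.3% of the 421 genes against GelMA and 53.7% against TCP, and Cox8a above 71.5% and 70.8%. Cox7a1 was above 93.3% against GelMA and 79.6% against TCP. Cox6a2 was above only 20.0% against GelMA, 6.18% against TCP and 2.85% between the controls. Cox8b was above 43.2%, 24.7% and 9.98% in the same order. The part of transcript length in the member ratios was not tested beyond the correction that follows.

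**Figure D2:**
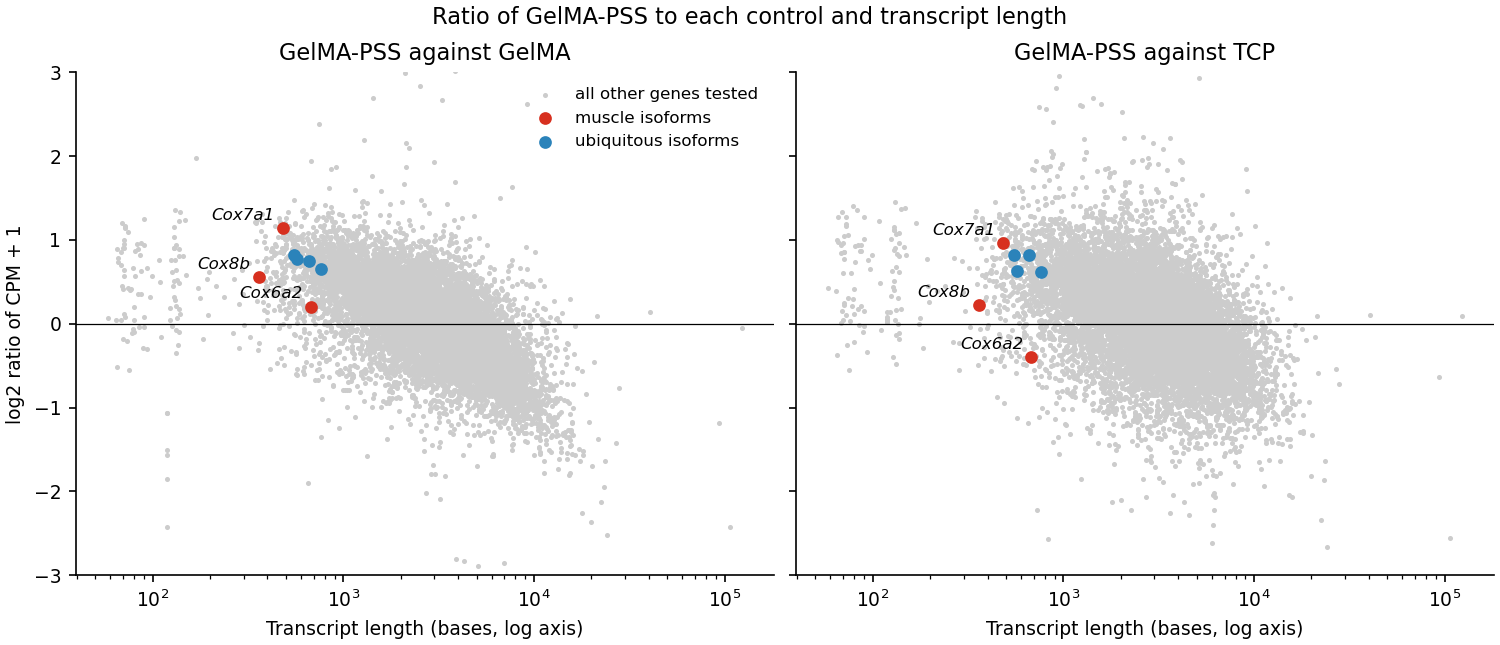
Log2 ratio of GelMA-PSS to each control against transcript length in bases on a log axis, with 1 point per gene, muscle isoforms in red and ubiquitous isoforms in blue; genes beyond -3 or 3 lie outside the panels. The cloud falls with length (Spearman's rho -0.66 against GelMA and -0.50 against TCP), and among short genes Cox7a1 lies high and Cox6a2 low.

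After loess fits on transcript length and GC content were subtracted, the ubiquitous members kept small positive ratios. Cox4i1 was at 0.15 against GelMA and 0.18 against TCP, Cox6a1 at 0.21 and 0.12, Cox7a2 at 0.12 and 0.27, and Cox8a at 0.25 and 0.31. Cox7a1 was at 0.51 and 0.39, less than its uncorrected ratios. Cox6a2 was at -0.40 against GelMA and -0.94 against TCP, and Cox8b at -0.05 and -0.33. Thus Cox6a2 against GelMA and Cox8b against both controls had the opposite sign from the uncorrected ratios. TPM also turned the sign of Cox6a2 against GelMA (-0.25) and of Cox8b against TCP (-0.18), but not of Cox8b against GelMA (0.12). No member passed 2-fold after the correction, where 0.666% of all genes were higher and 1.20% lower against GelMA, 2.01% and 2.41% against TCP, 0.437% and 0.628% against both, and 0.651% and 0.260% between the controls. With the correction 5 of the 7 members were higher than both controls and 2 lower, beside 40.9% and 40.7% of all genes. For GelMA against TCP the muscle isoforms Cox6a2, Cox8b and Cox7a1 were at -0.57, -0.32 and -0.16 after correction, close to the uncorrected -0.61, -0.33 and -0.18.

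**Figure D3:**
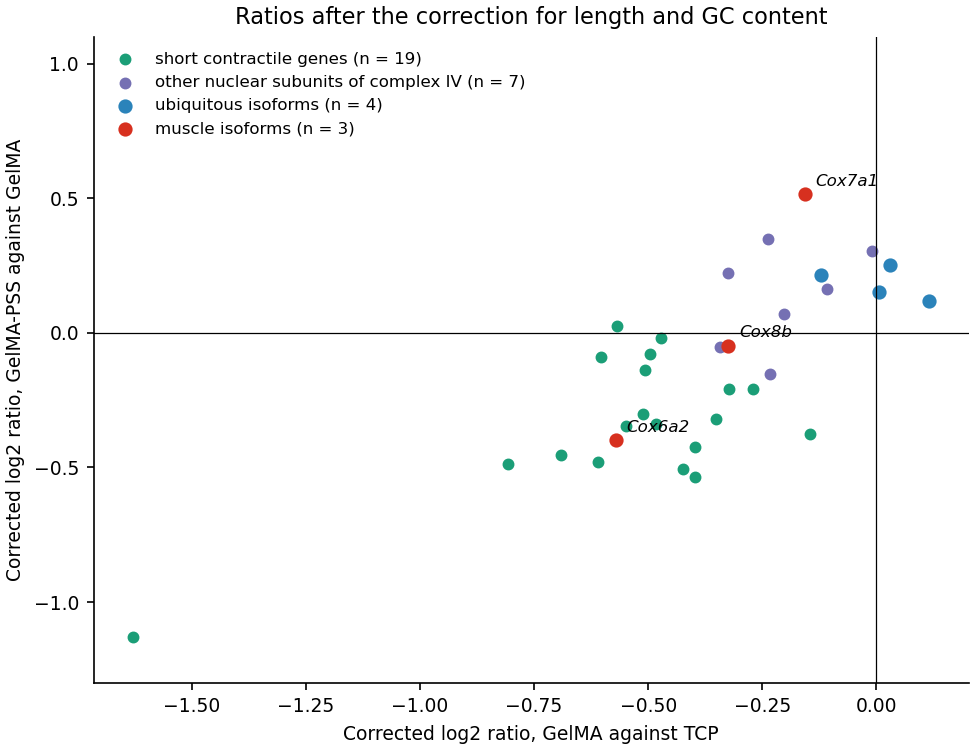
Log2 ratios after correction for length and GC content, with GelMA against TCP on the horizontal axis and GelMA-PSS against GelMA on the vertical axis, for the members and the comparison genes. Cox6a2 is low on both axes (-0.57 and -0.40), Cox7a1 is high on the vertical axis (0.51), and the ubiquitous members lie between 0.12 and 0.25 on it.

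A ratio of both isoforms within one library does not depend on the scaling between libraries. Cox6a2 made up 24.9% (95% Wilson interval 24.3 to 25.5) of the counts of the 6A pair on TCP, 19.3% (18.7 to 19.9) on GelMA and 13.9% (13.6 to 14.2) on GelMA-PSS. Per transcript length, Cox6a1 exceeded Cox6a2 by 3.59 times on TCP, 4.98 times on GelMA and 7.38 times on GelMA-PSS. Of the 3 muscle shares this was the largest on every substrate, and the intervals of its libraries did not overlap.

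Cox8b made up 9.40% (9.0 to 9.83) of the counts of the subunit 8 pair on TCP, 7.49% (7.06 to 7.94) on GelMA and 6.44% (6.23 to 6.66) on GelMA-PSS. Per length, Cox8a exceeded Cox8b by 6.31, 8.09 and 9.50 times. Subunits 6A and 8 thus had the same order of libraries, with the muscle share highest on TCP and lowest on GelMA-PSS, although Cox8b itself had its highest CPM on GelMA-PSS.

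Cox7a1 made up 4.13% (3.81 to 4.48) of the counts of the 7A pair on TCP, 3.38% (3.05 to 3.74) on GelMA and 4.95% (4.73 to 5.18) on GelMA-PSS. Here the share was highest on GelMA-PSS and lowest on GelMA. Per length, Cox7a2 exceeded Cox7a1 by 17.1, 21.0 and 14.1 times. Cox4i2 made up 0.012% (0.005 to 0.027) of the subunit 4 pair on TCP, 0.032% (0.017 to 0.059) on GelMA and 0.006% (0.003 to 0.013) on GelMA-PSS, and rested on 10 counts or fewer per library.

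**Figure D4:**
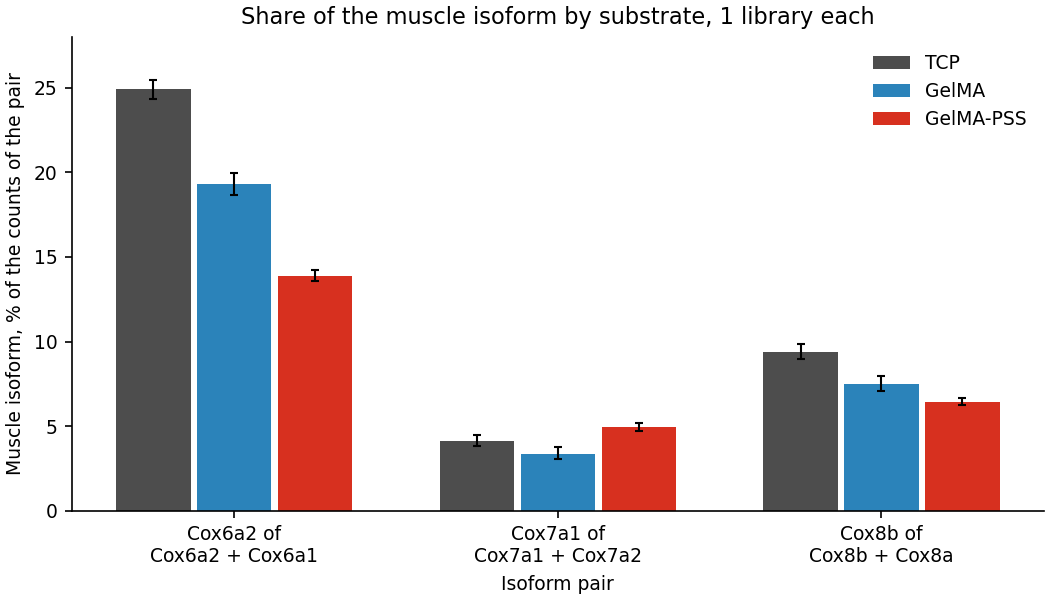
Share of the muscle isoform in the summed counts of each pair, in percent, with 1 bar per library and 95% Wilson intervals for counting error. The shares of Cox6a2 (24.9%, 19.3%, 13.9%) and Cox8b (9.40%, 7.49%, 6.44%) step down from TCP to GelMA to GelMA-PSS, and that of Cox7a1 (4.13%, 3.38%, 4.95%) does not.

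Expressed as the change in log2(muscle counts / ubiquitous counts), the 6A ratio moved by -0.57 in GelMA-PSS against GelMA (interval -0.64 to -0.50), by -1.04 against TCP (-1.10 to -0.98) and by -0.47 between the controls, GelMA against TCP (-0.54 to -0.40). The subunit 8 ratio moved by -0.23 (-0.34 to -0.13), -0.59 (-0.68 to -0.50) and -0.36 (-0.47 to -0.24). The 7A ratio moved by 0.58 (0.41 to 0.74), 0.28 (0.13 to 0.42) and -0.30 (-0.50 to -0.10). All 3 muscle shares were therefore lower on GelMA than on TCP, and of the 3 the 7A pair alone was higher on GelMA-PSS than on either control. After correction for length and GC content the 6A changes were -0.61, -1.06 and -0.45, and those of subunit 8 were -0.30, -0.64 and -0.35. The corrected values rest on log2(CPM + 1), which matters for the low Cox7a1. The 7A changes were 0.39, 0.14 and -0.26 on that scale before the correction, and 0.39, 0.12 and -0.27 after it.

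**Figure D5:**
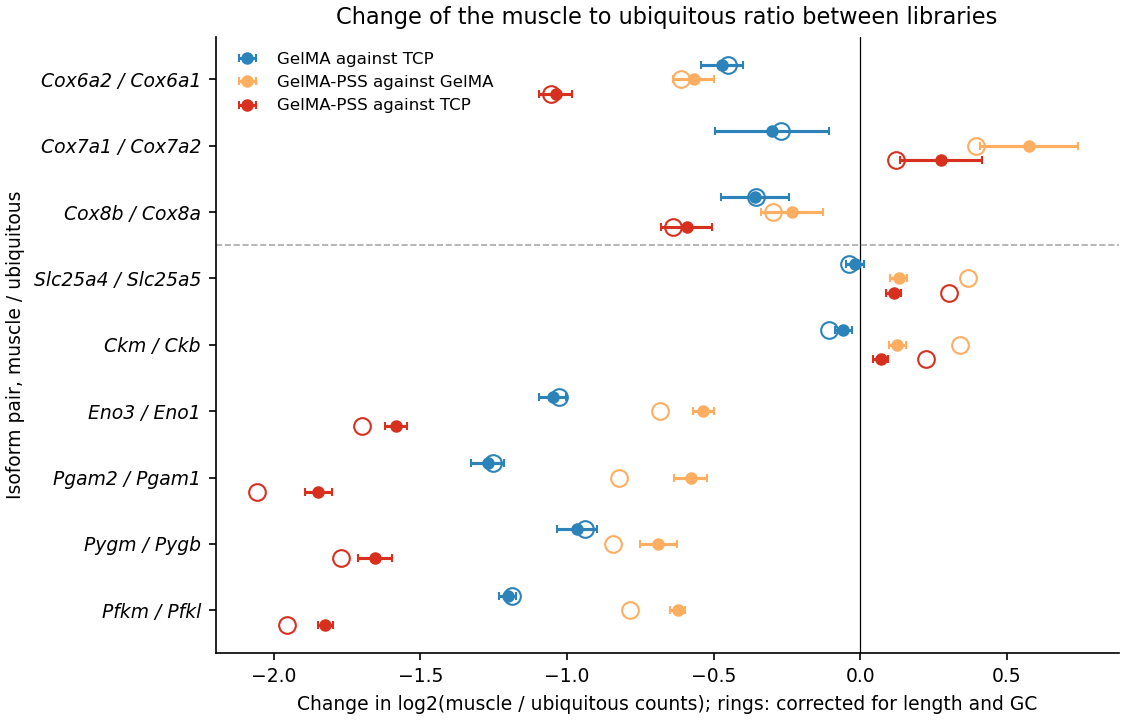
Change in log2(muscle counts / ubiquitous counts) between libraries for the cytochrome oxidase pairs (above the dashed line) and for other enzyme pairs, with bars for counting error and rings for values corrected for length and GC content. The 6A and 8 pairs lie left of 0 in all 3 comparisons, and the 7A pair lies right of 0 for GelMA-PSS against either control (0.58 and 0.28).

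Other enzymes with a muscle isoform and a partner isoform were set beside these pairs. Changes are given for GelMA-PSS against GelMA, for GelMA-PSS against TCP and then for the controls, GelMA against TCP. For the mitochondrial ADP/ATP carriers, log2(Slc25a4/Slc25a5) moved by 0.13, 0.11 and -0.02, and after correction by 0.37, 0.30 and -0.04. The cytosolic creatine kinases, as Ckm/Ckb, moved by 0.13, 0.07 and -0.06, and after correction by 0.34, 0.22 and -0.11. Pairs of sugar and glycogen breakdown moved the other way on GelMA-PSS, and much of their distance from TCP was already there on GelMA. Phosphoglycerate mutase, as Pgam2/Pgam1, moved by -0.58, -1.85 and -1.27, and after correction by -0.82, -2.06 and -1.25. Phosphofructokinase, as Pfkm/Pfkl, moved by -0.62, -1.82 and -1.20, and after correction by -0.78, -1.96 and -1.19. Glycogen phosphorylase, as Pygm/Pygb, moved by -0.69, -1.66 and -0.97, and after correction by -0.84, -1.77 and -0.94. Enolase, as Eno3/Eno1, moved by -0.53, -1.58 and -1.05, and after correction by -0.68, -1.70 and -1.03, which is uncertain because the near copy Eno1b took 249481 to 789957 counts against 7304 to 27103 for Eno1. With Eno1b added to Eno1 the changes, uncorrected, were -0.48, -1.36 and -0.88. Mitochondrial creatine kinase gave no ratio, since Ckmt1 had 0, 5 and 0 counts.

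The other nuclear-encoded subunits of complex IV had no muscle form among them, and 7 of 10 reached the filter. All 7 exceeded both controls on GelMA-PSS, with medians of 0.87 against GelMA and 0.51 against TCP, and none passed 2-fold against both. Their transcripts ran from 540 to 1001 bases. Exceeding both controls held for 45.3% of all genes, and for 81.0% of those with transcripts of 360 to 765 bases. Cox7b had 157, 147 and 288 CPM in TCP, GelMA and GelMA-PSS, Cox7c 124, 112 and 208 CPM, and Cox6c 219, 180 and 362 CPM. After correction 3 of the 7 were higher and 2 lower, with medians of 0.16 and -0.06, beside 40.9% and 40.7% of all genes. The subunits encoded by mitochondrial DNA had no line in the counts under the symbols mt-Co1, mt-Co2 and mt-Co3, and were not analysed.

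Of 30 genes for assembly and for copper or heme delivery, 20 exceeded both controls on GelMA-PSS and 8 fell short of both, with medians of 0.56 and 0.25, and 1 passed 2-fold against both. This was Higd1a, an inner membrane protein induced by hypoxia that binds complex IV, with 54.9, 64.8 and 144 CPM and log2 ratios of 1.14 and 1.38. After correction 14 were higher, 13 were lower and none passed against both. Over all genes the shares were 45.3% higher and 39.3% lower, or 40.9% and 40.7% after correction, to set beside each list here. Past 2-fold against both, 1.37% of all genes were higher. Of 7 genes for cytochrome c and its partners, 6 were detected and 5 of these were higher, among them Cycs, cytochrome c itself, with 152, 128 and 215 CPM. After correction 3 of the 6 were higher and 3 lower, with medians of 0.10 and 0.02. The ribosomal and housekeeping genes Rplp0, Rps3, Rpl13a, Rps18, Gapdh and Actb exceeded both controls on GelMA-PSS in 6 of 6 cases, with medians of 0.80 and 1.04, which were 0.33 and 0.63 after correction.

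Among 23 regulators of respiratory and muscle genes, 19 reached the filter. GelMA-PSS had the highest value for 6 of these and the lowest for 8, beside 45.3% and 39.3% of all genes. Mef2c, a muscle transcription factor, was the 1 past 2-fold against both, with 289, 181 and 81.0 CPM and log2 ratios of -1.15 and -1.82. After correction it was at -0.85 and -1.61, and no regulator passed against both. Mef2d measured 147, 133 and 75.4 CPM, and Ppargc1b, a coactivator of mitochondrial genes, 9.77, 11.5 and 5.01 CPM. Ppargc1a was at -0.51 and -0.54, or -0.18 and -0.31 after correction, and the mitochondrial DNA factor Tfam at 0.43 and 0.41. The myogenic factors Myod1 and Myog differed less, with log2 ratios of 0.19 and 0.34 for Myod1 and 0.21 and -0.09 for Myog.

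The last list held genes of the contractile apparatus with mostly short transcripts, together with Mb, Cryab and Ckm. Ckm, Acta1 and Tnnt3 were also among the skeletal muscle markers, and Ckm was in an enzyme pair above. Transcripts of the list were mostly longer than those of the members, with a median of 1069 bases and 2742 for Ckm. Of the 20, 3 were within 360 to 765 bases. Of these 20 genes 19 reached the filter, with medians of 0.09 against GelMA, -0.41 against TCP and -0.54 between the controls. Higher than both controls was 1, and lower were 7, of which none passed 2-fold against both. The shares over all genes were 45.3% higher and 39.3% lower. After correction 18 of 19 were lower than both controls, as were 40.7% of all genes. The corrected medians were -0.34 and -0.78, beside -0.40 and -0.94 for Cox6a2, -0.05 and -0.33 for Cox8b and 0.51 and 0.39 for Cox7a1. The regulatory light chain Myl2 was the furthest down, with 41.8, 12.5 and 8.21 CPM. At -1.13 and -2.73 after correction, it was the 1 gene of the list then past 2-fold lower against both. Over all genes this share was 0.628%.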

How the data were processed

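RNA-seq libraries of C2C12 cells were available for 3 substrates (1 each) and were assigned by their labels. The authors deposited unscaled counts for each gene symbol, made from strand-specific paired-end reads; their processing notes name TopHat, edgeR, mm10 and hg19, and the counting tool and annotation are not given in the sources used here. The methods name a TruSeq kit and the labels a SMARTER kit.

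Lines sharing a symbol (35 symbols) were summed, and counts were scaled to CPM with TMM factors from edgeR 4.0.16 in R 4.3.3. A gene was kept if any library reached 1 CPM, ratios were taken on log2(CPM + 1), and 2-fold was the threshold, after the methods, which used FPKM. Wilson intervals (95%, scipy 1.17.1) cover counting error only, and understate it if mates were counted separately. Lengths and GC content came from GENCODE vM21; 22197 symbols matched directly, 650 through older symbols and 391 not. The correction subtracted loess curves on length and then on GC content (span 0.3, statsmodels 0.14.6). It was run on simulated counts with a length trend in GelMA-PSS and no trend on GC content, which does not test the GC step. Promoter sequences were from RefSeq. DESeq2 1.42.0 gave median-of-ratios factors as an alternative; other scalings, the pseudocount, the filter and the threshold were varied too.

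The members and lists were chosen with earlier results of these data known. Beyond the members, each list gave the genes past 2-fold against both controls or up to 3 with the largest change against the nearer control, all other enzyme pairs, and for each muscle isoform the 3 genes with the nearest pair of ratios. Ppargc1a, Tfam, Myod1 and Myog were named after their values were seen.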

Additional observations from a re-analysis of the deposited data

How the results depend on the processing

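With 1 library per substrate, none of these values can be set against biological spread, and Cox4i2 is limited by counts of 5 to 10. No paired analysis was possible because each substrate has 1 library. The count of members higher past 2-fold against GelMA was 0 with TPM, 0 after correction for length and GC content, and 0 when ratios were centred on genes of the members' lengths, an alternative chosen after seeing the data. A pseudocount of 0.1 CPM gave 1 member higher against TCP and 1 against both controls, beside 698 and 259 of all 13169 genes. A 1.5-fold threshold gave 5 members higher against GelMA, 5 against TCP and 5 against both, and 1 lower in GelMA against TCP. Over all 13169 genes it gave 1448, 1738 and 1064 higher in the same order, and 279 lower in GelMA against TCP. Genes of the members' lengths were not counted at 1.5-fold, and their median log2 ratios were 0.64 to GelMA and 0.58 to TCP. The 7A change against GelMA was 0.39 on log2(CPM + 1) and 0.39 after correction, and against TCP 0.12 after correction, while the Cox4i2/Cox4i1 change against GelMA, -2.39 from counts, was -0.76 on log2(CPM + 1). Other nuclear subunits were higher than both controls in 3 and lower in 2 after correction, and higher in 8 and lower in 1 without the filter. The lower one was Cox7b2, with 6, 1 and 1 counts in TCP, GelMA and GelMA-PSS. Short contractile genes were higher in 0 and lower in 12 with CPM from total counts, and higher in 0 and lower in 18 after correction. After correction 40.9% of all genes were higher than both controls and 40.7% lower. The matching shares of all genes were not counted with CPM from total counts or without the filter. With CPM from total counts the median log2 ratios of all genes were -0.10 to GelMA and -0.06 to TCP. The cause of these shifts was not tested.

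The median log2 ratio over all genes against GelMA and TCP was -0.10 and -0.06 with total-count CPM, and -0.37 and -0.32 with TPM. Genes past 2-fold against both controls numbered 180 higher and 153 lower, 97 and 261 with total-count CPM, 30 and 626 with TPM, 259 and 294 with the smaller pseudocount, 1064 and 946 at 1.5-fold, 57 and 82 after correction, and 15 and 1851 when centred. Median-of-ratios factors gave 176 and 159. Adding counts of copies of the members was not run, since the one copy found, a processed pseudogene of Cox6a1, has no line in the counts. The corrected Cox4i2/Cox4i1 change could not be given because Cox4i2 missed the filter.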

Other observations

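For each muscle isoform, the genes with the nearest pair of log2 ratios (GelMA against TCP, and GelMA-PSS against GelMA) were listed, over 3 libraries only. For Cox6a2 these were Wnt4, Cys1 and Gas6, at distances of 0.02, 0.03 and 0.03, and 30 genes lay within 0.1. For Cox7a1 they were 3830403N18Rik, Atp5k and Gadd45g, at 0.03, 0.04 and 0.05, with 21 genes within 0.1. Atp5k, a subunit of ATP synthase, measured 120, 104 and 225 CPM in TCP, GelMA and GelMA-PSS and has a transcript of 371 bases. For Cox8b they were Map3k7cl, Zfp934 and Prkag2, each at 0.01, with 150 genes within 0.1.

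Mss51, a muscle protein named for a yeast factor of complex IV assembly, measured 23.3, 12.8 and 8.70 CPM and was named after its values were seen.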
